A study of Mus musculus with 6 samples.

Results

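Pdx1, Mnx1, Nkx6-1, Nkx6-2 and Nkx2-2 are homeodomain transcription factors of the embryonic pancreas. They were taken as a group by name, for what they are known to do. No threshold on a measured value set their membership, but earlier results of these data were known when they were chosen. They are 5 of the 31028 genes in the RNA table and 4 of the 8269 genes in the ATAC tables, where Mnx1 was not analysed here. The study measured single cells of C57BL/6 mouse embryos in 6 libraries, 1 per group, so every comparison is between 2 libraries and has no replicate check. The wild-type group (WT) was Ptf1a+/+, and the other group (KO) was Ptf1aenh-delta/enh-delta, homozygous for the loss of an enhancer of Ptf1a. Ptf1a encodes a basic helix-loop-helix factor of the early pancreas and later of acinar cells. At embryonic day 10.5 (E10.5) the pancreatic multipotent progenitor region was dissected, with 5 to 9 embryos pooled per dataset, and each genotype gave 1 RNA library and 1 ATAC library. At embryonic day 13.5 (E13.5) whole pancreas from 6 embryos per dataset gave 1 ATAC library per genotype. ATAC cuts open chromatin with a transposase, and the tables hold 1 accessibility score per gene and cell. The barcodes of the E13.5 libraries also name a different month for each genotype, and the effects of month and genotype cannot be told apart at that stage.

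Many homeodomain factors, though not all, bind short DNA motifs with a TAAT core. Pdx1 marks the pancreatic and duodenal endoderm, is required for the bud to grow, and is later kept high in beta cells, where it drives insulin. Mnx1 (Hb9) is needed for the dorsal bud to form and later for beta cells, and it is also a motor neuron factor. Nkx6-1 and Nkx6-2 are close paralogs that act as repressors, share early roles in the bud, and work against Ptf1a in the choice between the trunk (duct and endocrine) and the tip (acinar) of the branching epithelium. Nkx2-2 is expressed in early progenitors and then in endocrine precursors, where it is needed for beta cells to form.

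In the mouse reference (RefSeq, GRCm38.p6) Pdx1 lies at chr5:147270097-147275848, Mnx1 at chr5:29473823-29478470, Nkx6-1 at chr5:101659184-101664711, Nkx6-2 at chr7:139579376-139582797 and Nkx2-2 at chr2:147176485-147195434. All 5 are protein-coding, and 3 share chromosome 5. The promoters of Mnx1 and Nkx6-2 are shown because these members differed most between the genotypes in progenitor-like cells, in opposite directions, and because the class of factor that Ptf1a belongs to binds the E-box. Each line gives the 250 bases before the RefSeq start of the gene, read 5′ to 3′ on the strand of the gene (minus for both, at chr5:29478471-29478720 and chr7:139582798-139583047), with E-boxes (CANNTG, which reads the same on both strands) in capitals.
Mnx1 promoter: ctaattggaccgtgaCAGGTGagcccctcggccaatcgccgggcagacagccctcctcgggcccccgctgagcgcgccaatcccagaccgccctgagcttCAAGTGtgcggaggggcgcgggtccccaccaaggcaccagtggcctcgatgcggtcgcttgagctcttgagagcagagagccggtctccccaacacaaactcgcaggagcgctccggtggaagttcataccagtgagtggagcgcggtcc
Nkx6-2 promoter: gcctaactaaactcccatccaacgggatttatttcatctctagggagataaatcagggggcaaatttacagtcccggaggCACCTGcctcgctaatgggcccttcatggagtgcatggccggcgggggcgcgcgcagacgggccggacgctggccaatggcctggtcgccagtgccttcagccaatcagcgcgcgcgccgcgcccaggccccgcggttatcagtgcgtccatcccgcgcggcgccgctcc
The Mnx1 window held 2 E-boxes and the Nkx6-2 window 1. Among the other members Pdx1 had 3, Nkx2-2 had 3 and Nkx6-1 had 0. The Nkx2-2 window (chr2:147186403-147186652, minus strand) lies inside the gene as placed above. All motif counts of Nkx2-2 are therefore of an internal window, not of the bases before the outer end of the gene. Such a match is common, since 66.0% of 27025 mouse promoters of this length held at least 1. The TAAT core, searched on both strands, occurred once in the windows of Mnx1, Nkx6-2 and Nkx2-2 and not in those of Pdx1 and Nkx6-1, against 55.3% of all promoters. The CCAAT box, also searched on both strands, occurred 3 times in the Mnx1 window and 2 times each in those of Nkx6-2 and Pdx1, and 34.5% of all promoters held it. No member held TATAAA, which 13% of all promoters did.

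Of the RNA cells, 451 in WT (median 6700 UMIs, the count of distinct RNA molecules) and 369 in KO (median 9856) had at least 1000 detected genes and were kept, with 4106604 and 4011819 UMIs in all. Clustering without the 5 members, Ptf1a and the acinar genes gave 9 clusters. The progenitor-like class (clusters 2 and 7) held 109 WT and 38 KO cells, the endocrine-like class (clusters 3, 6 and 8) 59 and 128, and the hepatobiliary-like cluster 22 and 37. Clusters 0 and 4 were mesenchyme-like, and cluster 1 stayed unnamed. The progenitor-like class was made up differently in the libraries: WT cells were split between cluster 2 (59) and cluster 7 (50), and KO cells lay in cluster 2 (36) but for 2 cells. Values for cluster 2 alone are therefore given beside those of the class. Ptf1a itself had 108 UMIs in the WT class and 0 in the KO class, at least 15.5-fold lower (taking 3 counts in the whole KO class as the floor).

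In E10.5 progenitor-like cells Mnx1, Nkx6-1 and Nkx2-2 were lower in the KO library, Nkx6-2 was higher, and Pdx1 differed little. Levels are summed UMIs scaled to a total of 1e+06 (CPM). The threshold was a ratio of 2 with 10 CPM added to both levels. By it 3 of the 5 members were lower and 1 was higher. Over all 5807 genes with at least 50 UMIs in the class, 1.02% were lower and 1.93% were higher by this threshold. In cluster 2 alone 2 of the 4 members past that minimum were lower and 1 was higher, against 1.08% and 1.96% of 4903 genes. Log2 ratios below are of CPM plus 10, KO over WT, and intervals are 95% intervals of counting error only. The median of all genes tested in the class was 0.17 on this scale, and a median-of-ratios scaling set the libraries 0.20 apart, so a ratio of 0 already lies below the middle of the genes.

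Pdx1, the factor that marks the whole bud, had 366 UMIs in WT and 125 in KO progenitor-like cells. Its level was 251 CPM (226 to 278) in WT and 199 CPM (165 to 237) in KO, which is -0.32 as a log2 ratio. The KO over WT ratio was 0.791 (0.640 to 0.972), and with the median-of-ratios scaling the log2 ratio was -0.52. Pdx1 was thus slightly lower in the KO cells, with an interval that stops short of 1.

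Mnx1, the dorsal bud factor, differed most. It had 69 UMIs in 47 of 109 WT cells and 3 UMIs in 3 of 38 KO cells. The level was 47.4 CPM (36.9 to 59.97) in WT and 4.77 CPM (0.984 to 13.9) in KO, a log2 ratio of -1.96. The WT level was 9.93-fold that of KO (3.26 to 49.3). The pseudocount sets the log2 value of such a low gene: it was -3.07 with 1 CPM and -1.15 with 30 CPM. In cluster 2 alone Mnx1 had 41 and 3 UMIs, under the minimum of 50, with a log2 ratio of -1.87.

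The paralogs Nkx6-1 and Nkx6-2 went opposite ways. Nkx6-1 had 117 UMIs in WT and 16 in KO progenitor-like cells, or 80.3 CPM (66.4 to 96.3) and 25.4 CPM (14.5 to 41.3). Its log2 ratio was -1.35, and the WT level was 3.16-fold that of KO (1.87 to 5.71). The log2 ratio missed the threshold with cells thinned to 2000 UMIs (-0.78) and, narrowly, with a pseudocount of 30 CPM (-0.99). Nkx6-2 had 282 UMIs in the WT cells and 278 in the KO cells, although the KO class was the smaller. This came to 194 CPM (172 to 218) in WT and 442 CPM (392 to 497) in KO, a 2.28-fold higher level (1.93 to 2.70) and a log2 ratio of 1.15. The cell with the most Nkx6-2 UMIs in KO had 26 of them, 9.35% of the total, and without the top cell of each library the log2 ratio was 1.13. In cluster 2 alone the ratios were -1.48 for Nkx6-1 and 1.11 for Nkx6-2. Nkx6-2 did not reach the threshold under some settings: its log2 ratio was 0.95 with the median-of-ratios scaling and 0.48 at a coarser clustering, in which 15 WT and 35 KO cells of the hepatobiliary-like cluster joined the class.

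Nkx2-2, which marks progenitors and then endocrine precursors, had 116 UMIs in WT and 15 in KO progenitor-like cells. The level was 79.7 CPM (65.8 to 95.5) in WT and 23.9 CPM (13.4 to 39.3) in KO, a log2 ratio of -1.41, and the WT level was 3.34-fold that of KO (1.94 to 6.16). Of the 15 KO UMIs, 6 came from 1 cell, and without the top cell of each library the log2 ratio was -1.81. The ratio in cluster 2 alone was -1.45.

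**Figure D1:**
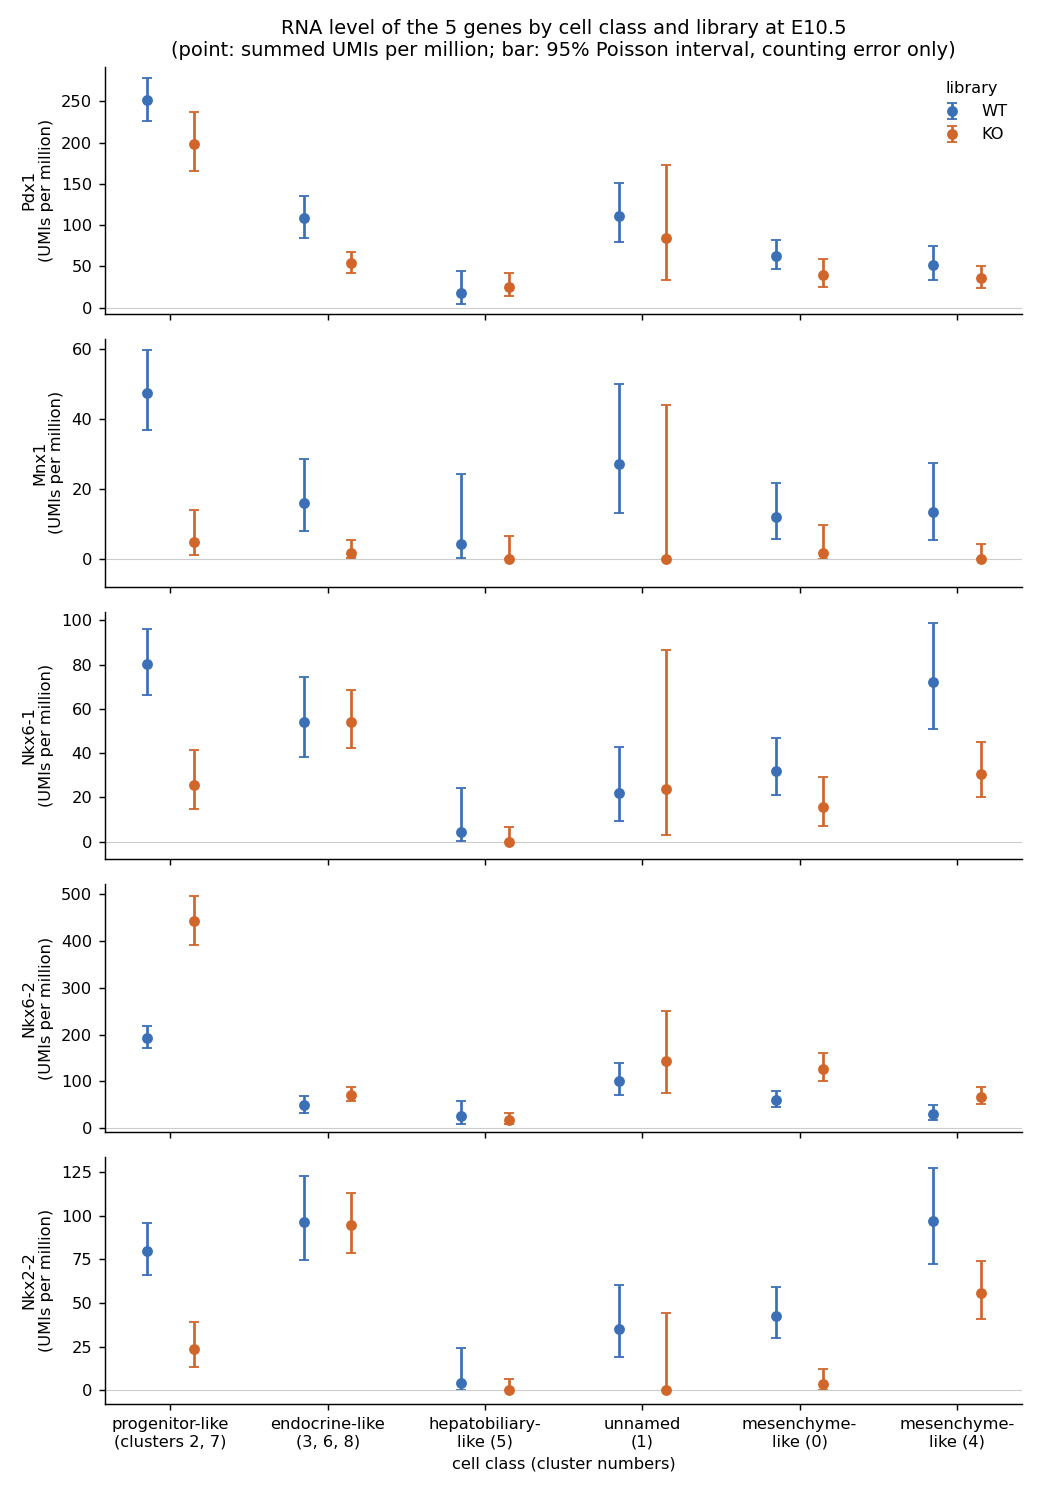
Level of each member (vertical axis, CPM) in each cell class or cluster of the E10.5 RNA libraries (horizontal axis), with points for WT and KO and bars for the 95% counting interval. In progenitor-like cells Nkx6-2 stands at 194 CPM in WT and 442 in KO, while Mnx1 goes from 47.4 to 4.77 CPM.

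By point values the same directions appeared in mesenchyme-like cluster 0, which is not pancreatic epithelium by its markers. This cluster held 151 WT and 101 KO cells, with median depths of 2454 and 2535 UMIs. Nkx2-2 there had 36 and 2 UMIs, Mnx1 10 and 1, Nkx6-1 27 and 9, and Pdx1 53 and 23, of 842251 and 581164 in all. The KO over WT ratio of Nkx2-2 was 0.0805 (0.00939 to 0.313). The intervals of Mnx1 (0.00334 to 1.02), Nkx6-1 (0.200 to 1.06) and Pdx1 (0.368 to 1.04) included 1. Nkx6-2 there had 51 and 74 UMIs, or 60.6 and 127 CPM, a KO over WT ratio of 2.10 (1.45 to 3.07). The 16 WT cells of cluster 0 with UMIs of 3 or more members had a median of 20572 UMIs, against 2103 for cells with at most 1 member. Detection of several members follows depth, and the part of the signal that came from deep cells was not measured. Free RNA, doublets and true expression were not told apart here. The KO level of Mnx1 in progenitor-like cells (4.77 CPM) was not distinguishable from that in cluster 0 (1.72 CPM, 0.0436 to 9.59). Nkx6-1 in KO progenitor-like cells (25.4 CPM) also overlapped cluster 0 (15.5 CPM, 7.08 to 29.4), while Nkx2-2 there (23.9 CPM) lay above it (3.44 CPM, 0.417 to 12.4). It did not clear mesenchyme-like cluster 4, where Nkx2-2 in KO was higher, at 55.5 CPM (ratio 1.28 to 4.48). In WT, Nkx2-2 was 96.8 CPM in cluster 4, 96.4 in endocrine-like cells and 79.7 in progenitor-like cells. These neighbours did not differ beyond counting error.

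Other markers moved with the genotype in the progenitor-like class. The 11 progenitor markers summed to 2237 CPM in WT and 2839 in KO, with none at 0. The 12 hepatobiliary markers summed to 714 CPM in WT and 2099 in KO, with Sox17 at 0 in KO. The 17 endocrine markers summed to 168 and 1050 CPM, with Pax4, Ins1 and Ins2 at 0 in both libraries and Iapp at 0 in KO. The 12 measured tip and acinar genes summed to 516 CPM in WT and 15.9 in KO, where 9 of them, Ptf1a included, were at 0. The 12 mesenchyme markers summed to 459 and 510 CPM, with Prrx1 at 0 in WT. The part of these markers in the members' differences was not tested.

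Shares of cells with a UMI gave the same order. In progenitor-like cells (median 12928 UMIs in WT, 16205 in KO) a Pdx1 UMI was found in 85.3% (77.3 to 91.4) in WT and 78.9% (62.7 to 90.4) in KO. Mnx1 was found in 43.1% (33.7 to 52.9) and 7.89% (1.66 to 21.4), and Nkx2-2 in 55.0% (45.2 to 64.6) and 23.7% (11.4 to 40.2). Nkx6-1 was found in 55.0% of WT cells and 31.6% of KO cells (17.5 to 48.6), and Nkx6-2 in 76.1% (67.0 to 83.8) and 92.1% (78.6 to 98.3). KO cells had the higher median depth and the lower shares of 4 members. With every cell thinned to 5000 UMIs (100 WT and 34 KO cells left) the shares were 66% and 61.8% for Pdx1, 25% and 2.94% for Mnx1, 36% and 11.8% for Nkx6-1, 62% and 85.3% for Nkx6-2, and 33% and 5.88% for Nkx2-2. Thinned to 2000 UMIs (107 and 35 cells), Pdx1 was found in 42.1% of WT progenitor-like cells and 4% of WT cluster 0 cells, and Nkx6-2 in 42.9% of KO progenitor-like cells and 11.3% of KO cluster 0 cells. At that depth 0 of 35 KO progenitor-like cells had an Nkx2-2 UMI, which allows a share of up to 8.57% by a floor of 3 counts, and up to 10.0% by the exact interval.

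In endocrine-like cells Nkx2-2 and Nkx6-1 had ratios near 1 and Pdx1 was lower in KO. None of the 4 members with at least 50 UMIs passed the threshold (a log2 ratio of 1 with 10 CPM added), against 0.501% of 5990 genes in either direction. Pdx1 had 74 UMIs in 59 WT cells and 70 in 128 KO cells, or 108 CPM (84.9 to 136) and 53.5 CPM (41.7 to 67.6). Its log2 ratio was -0.90, just inside the threshold, which it passed with a pseudocount of 1 CPM (-1.001) and with cells thinned to 2000 UMIs (-1.36), and the WT level was 2.02-fold that of KO (1.44 to 2.84). The KO level was not distinguishable from cluster 0 of the same library (39.6 CPM, 25.1 to 59.4).

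Nkx2-2 in endocrine-like cells had 66 and 124 UMIs, or 96.4 CPM (74.5 to 123) in WT and 94.7 CPM (78.8 to 113) in KO, a ratio of 0.983 (0.723 to 1.35). Nkx6-1 had 37 and 71 UMIs, 54.0 CPM (38.0 to 74.5) and 54.2 CPM (42.4 to 68.4), a ratio of 1.00 (0.666 to 1.54). These intervals still allow changes of that size, so equality is not shown. Nkx6-2 had 33 and 93 UMIs, 48.2 and 71.0 CPM, a log2 ratio of 0.48 (1.03, past the threshold, with cells thinned to 2000 UMIs), and did not exceed its level in cluster 0 of either library. Mnx1 had 11 and 2 UMIs, all in cluster 3. Whether the KO effect on Nkx6-1 or Nkx2-2 differed between progenitor-like and endocrine-like cells was not tested.

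The 3 endocrine-like clusters used the members differently. They also made up the class differently in the libraries: cluster 3 held 33 WT and 56 KO cells, cluster 6 held 13 and 42, and cluster 8 held 13 and 30. The part of this make-up in the ratios of the class was not tested. Cluster 6, which holds the Neurog3 cells (Neurog3 is the factor that commits cells to the endocrine lineage), had the highest Nkx2-2 level of any cluster: 254 CPM (174 to 358) in 13 WT cells and 208 CPM (163 to 262) in 42 KO cells. Cluster 8, the hormone-rich one, had 26.3 CPM in WT and 23.0 CPM in KO. Cluster 3 had the highest Pdx1 of the 3, at 155 CPM (117 to 200) in WT and 72.8 CPM (52.5 to 98.4) in KO, a log2 ratio of -0.99. Nkx6-2 in cluster 3 was 46.1 CPM in WT and 90.1 CPM in KO, a ratio of 1.95 (1.11 to 3.60).

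The endocrine-like cells were also split by a Neurog3 UMI. The 7 WT cells with Neurog3 had 354 CPM of Nkx2-2 (216 to 547) and the 52 without had 73.2 CPM (53.6 to 97.6). In KO the 34 cells with Neurog3 had 207 CPM (157 to 268) and the 94 without 64.1 CPM (49.6 to 81.6). Nkx2-2 was higher with Neurog3 in both libraries, by a ratio of 2.71 to 8.35 in WT and 2.23 to 4.67 in KO, where the median depth was 7827 UMIs with Neurog3 and 10569 without. For thinned cells the split was made again, so cells that lost their Neurog3 UMIs moved to the side without. With KO cells thinned to 2000 UMIs (17 and 110 cells) Nkx2-2 was 176 and 95.5 CPM. The interval of the ratio, 0.611 to 4.74, included 1. Thinned WT cells (4 and 54) had 875 and 83.3 CPM, a ratio of 3.32 to 31.7. Nkx6-1 in KO was 28.6 CPM with Neurog3 and 61.2 without, a ratio of 0.193 to 0.978, but at 2000 UMIs it was 58.8 and 63.6 CPM (0.102 to 4.02), and no difference could be seen. In WT, where 7 cells carry the split, Nkx6-1 was 88.6 CPM with Neurog3 and 50.9 without, a ratio of 0.529 to 4.50.

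The order of cell classes differed by member. Pdx1 was highest in progenitor-like cells in both libraries, followed in WT by the unnamed cluster 1 (112 CPM) and the endocrine-like class (108 CPM), which did not differ beyond counting error. Nkx6-2 was also highest in progenitor-like cells in both. Nkx6-1 in WT was close in progenitor-like cells (80.3 CPM), mesenchyme-like cluster 4 (72.1 CPM, cells with a median of 21178 UMIs) and endocrine-like cells (54.0 CPM), neighbours that did not differ beyond counting error. In KO the endocrine-like class led for Nkx6-1 (54.2 CPM) and for Nkx2-2 (94.7 CPM), each above the next, cluster 4 (30.7 and 55.5 CPM). Hepatobiliary-like cells had few UMIs of any member: Pdx1 4 in WT and 14 in KO, Nkx6-2 6 and 10, and 1 and 0 each for Mnx1, Nkx6-1 and Nkx2-2. The KO over WT ratios there, 0.448 to 5.95 for Pdx1 and 0.224 to 2.27 for Nkx6-2, gave no direction. In 22 WT cells and 37 KO cells, a count of 0 allows up to 5.34 CPM in KO.

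Most WT progenitor-like cells carried several members at once. UMIs of 3 or more of the 5 were found in 72.5% of WT cells (79 of 109, interval 63.1 to 80.6) and in 47.4% of KO cells (18 of 38, interval 31.0 to 64.2). All 5 were found in 13 WT cells and 1 KO cell, and none in 5 and 1. With cells thinned to 5000 UMIs the share with 3 or more was 42.0% in WT (32.2 to 52.3) and 11.8% in KO (3.30 to 27.5). Detection of several members follows depth: WT cells with at most 1 member had a median of 4483 UMIs and those with 3 or more 13408, and in KO the medians were 8413 and 19759. In endocrine-like cells 16 of 59 WT cells (27.1%) and 23 of 128 KO cells (18.0%) had 3 or more, or 9.80% and 3.39% at 5000 UMIs. Hepatobiliary-like cells had 2 of 22 in WT and 0 of 37 in KO.

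**Figure D2:**
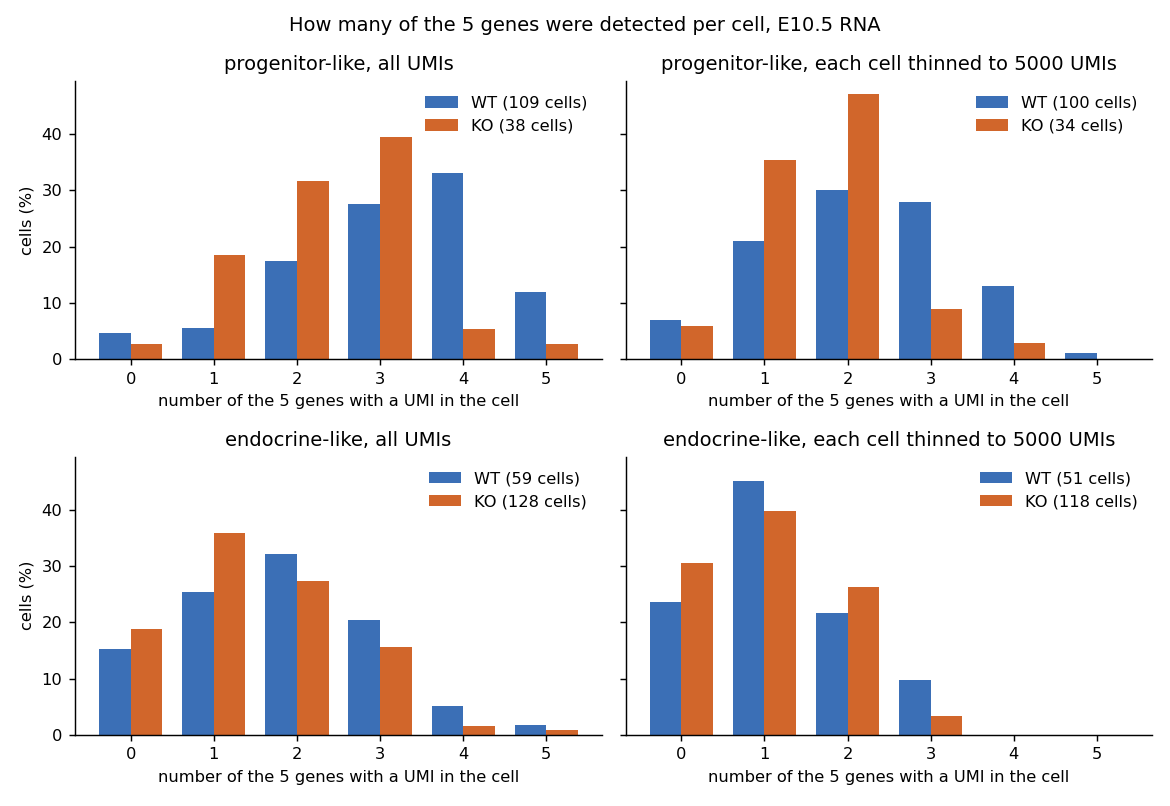
Share of progenitor-like and endocrine-like cells with UMIs of 0 to 5 members (horizontal axis), with bars for WT and KO, with all UMIs on the left and thinned to 5000 UMIs per cell on the right. With all UMIs, WT progenitor-like cells reach 72.5% with 3 or more members and KO progenitor-like cells 47.4%.

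Of the 10 pairs, Pdx1 with Nkx6-2 was the one found in the largest share of progenitor-like cells: 73 WT cells (67.0%) and 28 KO cells (73.7%). The other pairs with Pdx1 were lower in KO, at 52.3% and 28.9% for Nkx6-1, 49.5% and 23.7% for Nkx2-2, and 37.6% and 7.89% for Mnx1. These pair shares follow the lower shares of the single genes. In KO, Nkx2-2 (23.7%) and Mnx1 (7.89%) had the same shares by themselves as with Pdx1. A change in co-detection beyond that of the single genes was not tested. The paralogs Nkx6-1 and Nkx6-2 were found together in 46.8% of WT cells and 28.9% of KO cells. Nkx6-2 alone, in cells with no Nkx6-1 UMI, was found in 32 of 49 such WT cells (65.3%, 50.4 to 78.3) and in 24 of 26 KO cells (92.3%, 74.9 to 99.0). Nkx6-1 with Nkx2-2 went from 34.9% in WT to 5.26% in KO. Pairs also follow depth: in WT, Nkx6-1 was found in 61.3% of cells with a Pdx1 UMI and 18.8% of the 16 cells without, whose median depths were 13426 and 8025 UMIs.

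At 1 depth some of these relations were not seen. With WT cells thinned to 5000 UMIs, Nkx6-1 was found in 37.9% of cells with Pdx1 (26.2 to 50.7) and 32.4% of cells without (17.4 to 50.5). For the pair Nkx6-1 and Nkx2-2 at that depth, Nkx2-2 was found in 47.2% of WT cells with Nkx6-1 (30.4 to 64.5) and 25% of those without (15.02 to 37.4), with intervals that overlapped.

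In endocrine-like cells the pair Nkx6-1 and Nkx2-2 was again found in a smaller share of KO cells: 27.1% of WT cells (16 of 59, interval 16.4 to 40.3) and 9.38% of KO cells (12 of 128, interval 4.94 to 15.8). Nkx2-2 was found in 72.7% of WT cells with Nkx6-1 (49.8 to 89.3) and 45.9% of those without (29.5 to 63.1). In KO it was found in 36.4% of cells with Nkx6-1 (20.4 to 54.9) and 55.8% of those without (45.2 to 66.0). The KO order held at 5000 UMIs, with 18.2% (5.19 to 40.3) and 40.6% (30.7 to 51.1), and in both cases the intervals overlapped. Nkx6-2 with Nkx2-2 was found in 22.0% of WT cells and 23.4% of KO cells.

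**Figure D3:**
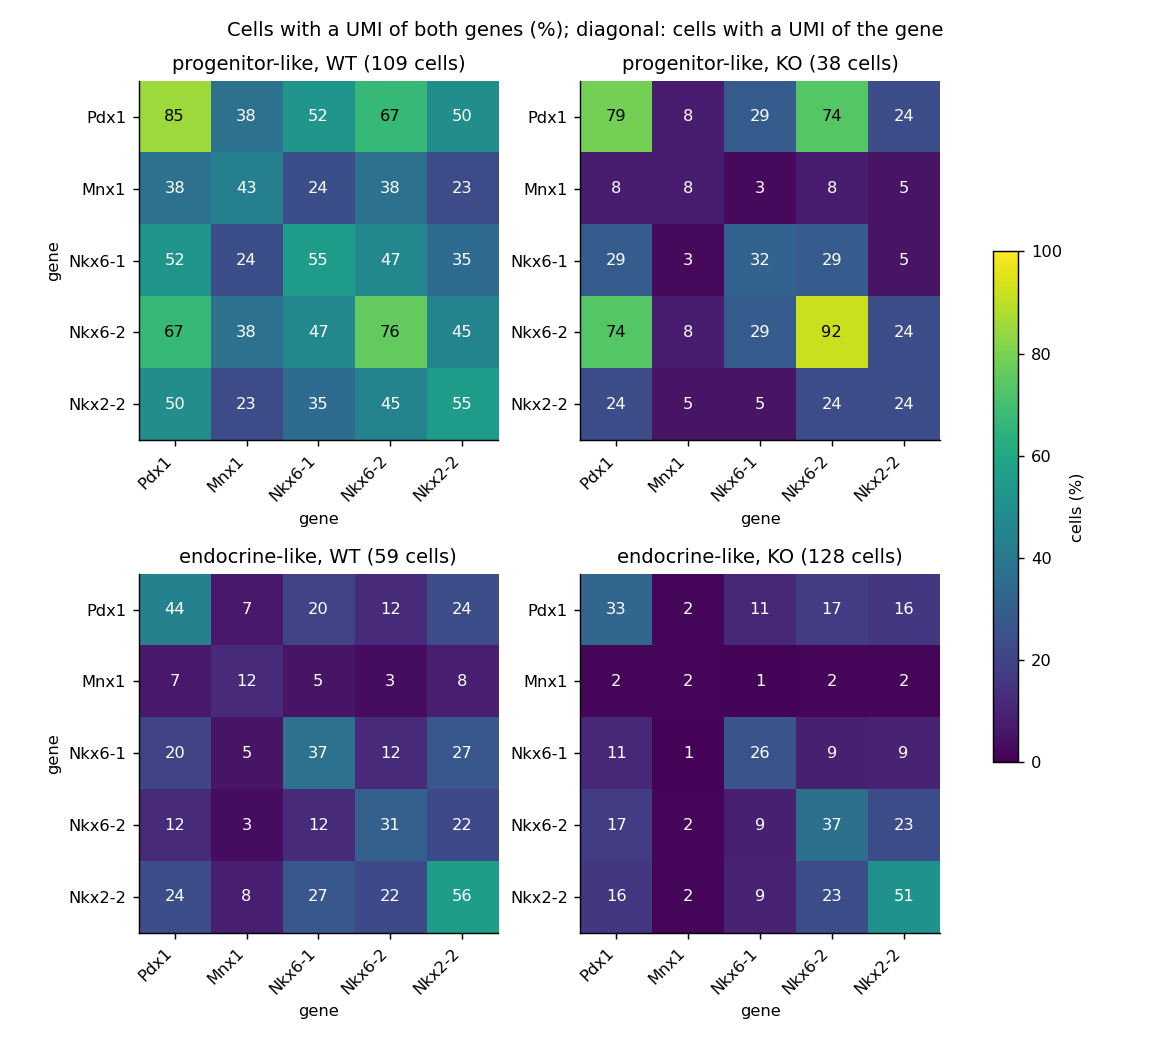
Share of progenitor-like and endocrine-like cells with UMIs of both genes of each of the 10 pairs (rows and columns are genes, colour is percent of cells, the diagonal is the gene by itself), WT and KO. Pdx1 with Nkx6-2 is found in 67.0% of WT and 73.7% of KO progenitor-like cells, and every other pair with Pdx1 is lower in KO there.

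Within WT progenitor-like cells the members were compared between the 62 cells with a Ptf1a UMI (median 14071 UMIs) and the 47 without (median 11126). Nkx6-1 was 94.7 CPM (76.0 to 117) with Ptf1a and 55.0 CPM (36.8 to 79.0) without, a ratio of 1.12 to 2.72. Nkx6-2 was 222 CPM (192 to 254) and 144 CPM (114 to 181), a ratio of 1.18 to 2.03. Both paralogs were thus higher in the cells with Ptf1a. Pdx1 (242 and 268 CPM), Mnx1 (45.2 and 51.2 CPM) and Nkx2-2 (82.9 and 74.0 CPM) did not differ beyond counting error. At 2000 UMIs, with the split made again from the thinned counts, 14 cells were on the Ptf1a side. Nkx6-1 had 1 UMI there and its order could not be read. Nkx6-2 kept its direction at 393 and 156 CPM (ratio 1.14 to 5.20).

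Across the 14 sums of cells by library and cluster (those with at least 20 cells, sharing libraries and depth), the genes most like each member were listed as a description. Pdx1 was closest to Plut (r = 0.86), a noncoding RNA whose gene overlaps the 5′ end of Pdx1 (shared reads could not be told apart, as the counting's strand setting is not given here), then S100a11 (0.81) and Mnx1 (0.80). Mnx1 was closest to Polr2i (0.93), Cpa1 (0.91), an early acinar enzyme, and Mrpl52 (0.88). Nkx6-1 was closest to Mid1ip1 (0.83), Smim26 (0.80) and Fam13b (0.78). Nkx6-2 was closest to Kynu (0.94), Slco3a1 (0.85) and Scrn2 (0.84), and Nkx2-2 to Insm1 (0.86), an endocrine factor, Zbtb18 (0.84) and Ube2j1 (0.82). Among the members Pdx1 with Nkx6-2 gave 0.75, Nkx6-1 with Nkx2-2 0.70, and Nkx6-1 with Nkx6-2 0.34. Other genes that overlap the members were low: Nkx2-2os had 3 WT and 1 KO UMIs in progenitor-like cells, and Inpp5a, which overlaps Nkx6-2, had 4 and 3.

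The wider network was read from fixed gene lists. Of 16 upstream and partner factors of Pdx1, 14 had enough UMIs in progenitor-like cells. Of these, 3 were higher in KO and none lower, against 1.93% and 1.02% of all 5807 genes. The median log2 ratio of the 14 was 0.39 beside 0.17 for all genes tested. The 3 were Foxa1, a pioneer factor of endoderm (13.7 CPM in WT, 74.7 in KO, 1.84), Hhex, a factor of the liver and ventral pancreas (44.6 and 156 CPM, 1.60), and Gata4 (22.7 and 55.7 CPM, 1.01). Hhex and Gata4 were named after their values were seen. Sox9, which keeps progenitors, was 685 and 760 CPM (0.15), and Prox1 was lowest at 163 and 110 CPM (-0.53). Of 9 TALE homeodomain cofactors (partners that bind DNA together with other homeodomain factors) 7 were tested and none passed, with a median of 0.39. Meis2 had the lowest ratio of them (327 and 377 CPM, 0.20). No gene of the 16 other NKX and ParaHox genes, the 14 of the endocrine network or the 11 beta-cell genes reached 50 UMIs in that class.

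In endocrine-like cells no tested gene of these lists passed a log2 ratio of 1 with 10 CPM added. Without that addition Neurog3 had a KO over WT ratio of 2.11 (1.49 to 3.03). Of its UMIs in the class, 42 of 42 in WT and 163 of 169 in KO lay in cluster 6. That cluster was a larger part of the class in KO, and within it the ratio was 1.44 (1.02 to 2.07). The endocrine network had 12 of 14 genes tested and a median of 0.07, beside 0.08 for all genes, from St18 (67.2 and 51.2 CPM, -0.33) to Neurog3 (61.3 and 129 CPM, 0.96). Isl1, the factor of all islet cells, was 1197 and 1500 CPM (0.32), and Pax6 441 and 468 CPM (0.08). Of 11 beta-cell genes regulated by Pdx1 and Nkx6-1, 5 were tested, with a median of -0.17, from Ins1 (346 and 267 CPM, -0.36) to Iapp (637 and 1131 CPM, 0.82). The Pdx1 level in these same cells was 2.02-fold higher in WT.

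Accessibility at E10.5 showed little difference at the 4 members in the ATAC tables. The score sums to 10000 per cell over 8269 genes, and its number of fragments is unknown. Over all cells (838 WT and 700 KO) the mean score was 2.39 ± 3.46 (SD over cells) in WT and 2.65 ± 3.40 in KO for Pdx1, a log2 ratio of 0.15. Nkx6-1 had 2.59 ± 2.80 and 2.83 ± 3.49 (0.13), Nkx6-2 3.51 ± 4.23 and 3.58 ± 4.29 (0.03), and Nkx2-2 2.26 ± 2.85 and 2.30 ± 2.997 (0.03). None of the 4 passed 0.5 on the log2 scale, against 0.645% of 8219 genes in either direction, while Ptf1a was lower (2.43 and 1.70, -0.51). The RNA of this stage, from other cells, had 3 of these 4 genes past its own threshold in the progenitor-like class. The share over all 5807 genes there was 2.94% in either direction.

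No member passed the threshold in any cluster of the E10.5 ATAC cells. The unnamed cluster 1 (206 WT and 130 KO cells) had low coverage, with medians of 1676 and 1707.5 genes above 0. Its log2 ratios were 0.46 for Nkx6-1, 0.39 for Pdx1, 0.37 for Nkx2-2 and 0.04 for Nkx6-2. There 27.4% of genes passed in either direction. In the unnamed cluster 0 (570 WT and 502 KO cells) 0 of 4 members passed, against 0.353% of genes, and Nkx2-2 was lowest at -0.16 (2.22 and 1.99). In the endocrine-like cluster 2 (62 and 68 cells) 0 of 4 passed, against 16.3% of genes. Nkx2-2 was more accessible in that cluster than over all cells, at 3.81 ± 2.75 in WT and 4.32 ± 3.33 in KO, with a score above 0 in 95.2% and 92.6% of cells.

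At E13.5 the score of Nkx6-1 and Nkx2-2 was lower in the KO library and that of Pdx1 and Nkx6-2 depended on which cells were counted. Over all cells (2314 WT and 602 KO) 3 of 4 members passed the threshold as lower, against 16% of 8208 genes. In such means over mixed cells, fewer cells of a type and a lower score per cell cannot be told apart. A blood-like cluster held 6.05% of WT cells (140) and 45.02% of KO cells (271), and its mean scores of the members were near 0, from 0.0681 to 0.387. Without it 2 of 4 members were lower, Nkx6-1 and Nkx2-2, against 1.58% of 8223 genes. Pdx1 then changed from -0.92 to -0.18, and Nkx6-2 changed sign from -0.48 to 0.16.

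Within the progenitor-like cluster 0 of E13.5 (1147 WT and 238 KO cells) the same 2 of 4 members were lower, against 1.29% of 8229 genes. The name came from a clustering resolution of 0.3, and at a resolution of 0.5 no E13.5 cluster took it. Nkx2-2 had a mean score of 3.11 ± 3.36 (SD over cells) in WT and 1.68 ± 1.98 in KO (log2 ratio -0.89), the 8th lowest of all genes tested. Nkx6-1 had 3.89 ± 3.96 and 2.54 ± 2.59, a ratio of -0.62, the 41st lowest. Pdx1 (2.60 ± 3.27 and 2.52 ± 2.19, -0.05) and Nkx6-2 (2.61 ± 3.65 and 2.70 ± 2.78, 0.05) were level. The share of cells with an Nkx2-2 score above 0 was close, at 75.8% and 76.5%, while the score among cells above 0 had a mean of 4.10 and 2.19. For Nkx6-1 these shares were 81.7% and 85.7% and the means 4.77 and 2.96. Pdx1, with a level mean over all cells of the cluster, had shares of 64.3% and 80.7% and means of 4.04 and 3.12. Coverage also differed between the libraries, and its part in these shares and means was not tested. They therefore do not separate fewer open cells from a lower score per cell.

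Coverage and marker scores moved with the genotype in this cluster. KO cells had a median of 5876 genes above 0 and WT cells 4162, while the median log2 ratio over all genes tested was 0.00. Summed scores were 41.0 in WT and 35.4 in KO for 10 progenitor markers, 15.8 and 10.4 for 8 tip and acinar genes (Ptf1a 4.59 and 1.95), and 11.8 and 15.5 for 12 hepatobiliary markers, with no gene of these lists at 0. Their part in the result was not tested.

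The endocrine-like cluster 2 of E13.5 (370 WT and 48 KO cells) had 2 members lower and 1 higher. The background was 9.78% of 8217 genes lower and 9.47% higher. Nkx6-1 was 4.68 ± 4.16 in WT and 2.75 ± 2.60 in KO (-0.77) and Nkx2-2 4.77 ± 4.24 and 2.81 ± 2.35 (-0.76). Nkx6-2 was 2.93 ± 3.06 and 4.53 ± 5.56 (0.63), with a share above 0 of 74.6% and 85.4%. Pdx1 was 2.75 ± 3.02 and 2.19 ± 2.67 (-0.33). Among the WT clusters of E13.5, Nkx6-1 and Nkx2-2 had their highest mean score in the endocrine-like one. In the same table cluster 1 (657 WT and 45 KO cells, medians of 1716 and 1274 genes above 0) is given by number because of its low coverage. The marker rule had called this cluster endothelium-like, with 3 of 6 markers raised, and that name was not used. Nkx2-2 was 3.57 and 0.491 there, and Nkx6-1 3.78 and 1.61.

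**Figure D4:**
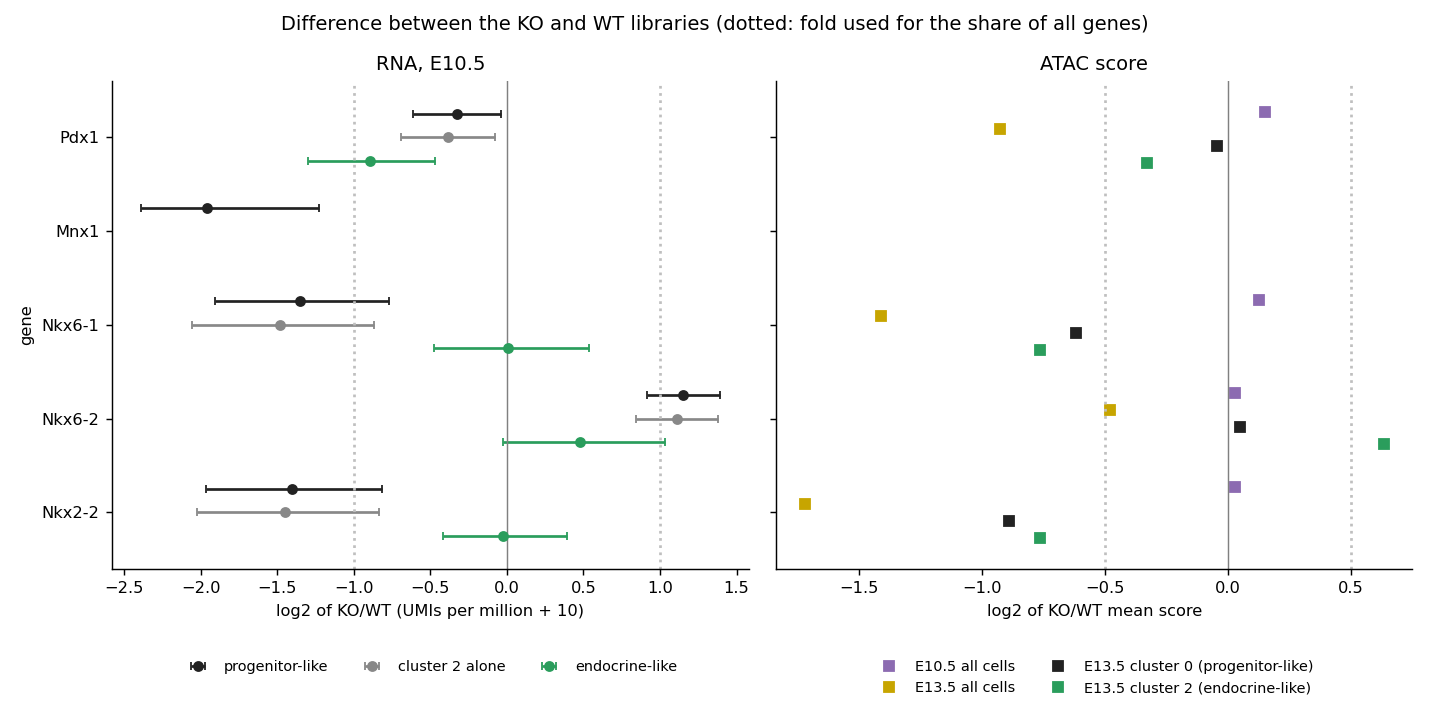
KO over WT log2 ratios (horizontal axes) of each gene (vertical axis), for RNA in progenitor-like cells, cluster 2 alone and endocrine-like cells on the left, with 95% counting intervals, and for the ATAC score in 4 sets of cells on the right. RNA ratios of Mnx1, Nkx6-1 and Nkx2-2 lie below -1 in progenitor-like cells, and ATAC ratios of Nkx6-1 and Nkx2-2 lie below -0.5 in each E13.5 set shown.

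**Figure D5:**
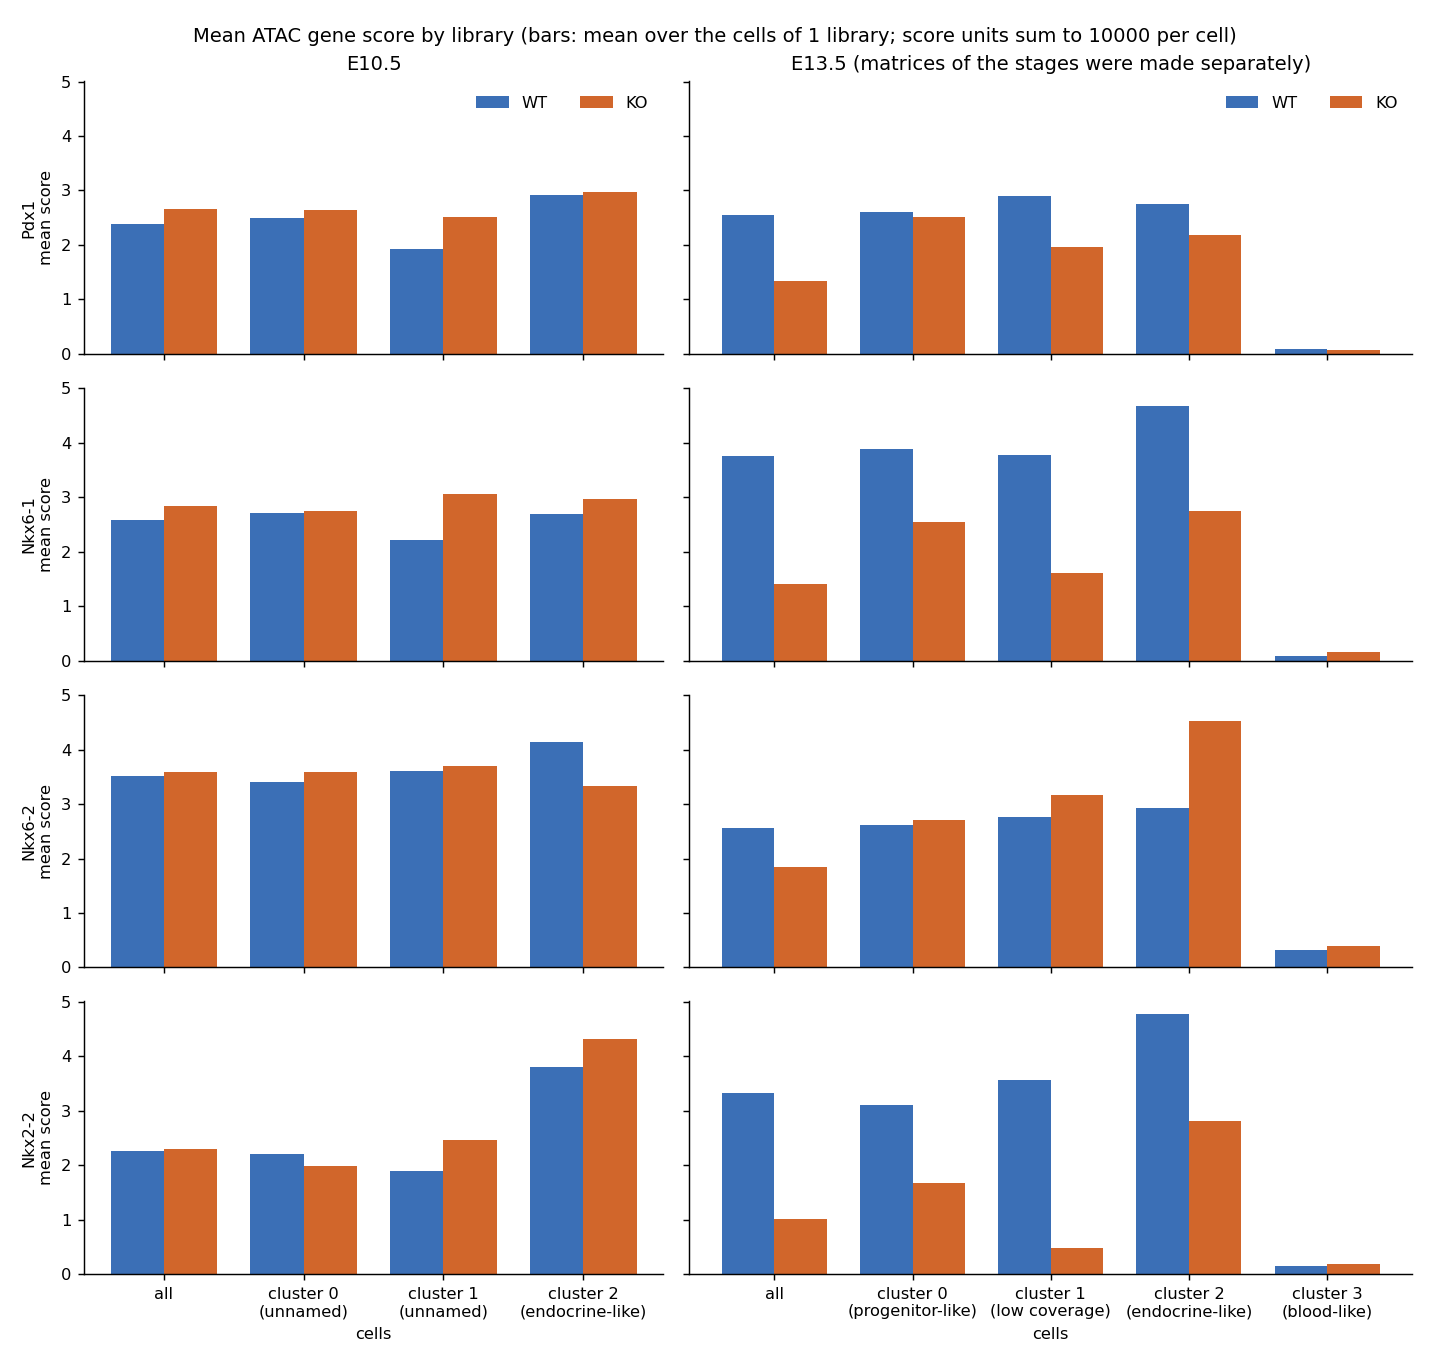
Mean accessibility score (vertical axis) of Pdx1, Nkx6-1, Nkx6-2 and Nkx2-2 over the cells of each cluster (horizontal axis) at E10.5 and E13.5, with bars for WT and KO. The stages come from separate tables. At E10.5 the genotypes lie close together over all cells and in cluster 0. At E13.5 Nkx2-2 is at 3.11 in WT and 1.68 in KO in the progenitor-like cluster 0.

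The other lists were mixed in cluster 0 of E13.5. Of 14 upstream and partner factors 2 passed as higher (against 1.96% of all 8229 genes), Foxa1 (1.53 and 2.64, 0.79) and Hnf4a (1.14 and 1.65, 0.53), and none as lower, with a median of -0.14. Sox9 was lowest (16.6 and 12.1, -0.45). Of 13 endocrine network genes and 7 TALE cofactors none passed, with medians of 0.08 and 0.05. Hnf4a was named after its values were seen. No gene of these 3 lists was as low as Nkx6-1 or Nkx2-2.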

How the data were processed

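The deposited RNA table gives UMI counts for each gene in each cell, unscaled whole numbers per the file headers and values. The deposited ATAC tables hold a gene-level signal, an accessibility score that the authors scaled to 10000 per cell. The genome build was mm10, per the submitters' processing notes, and the libraries were 10x droplet libraries, per the labels' protocols. Which aligner, cell filter and score-making tool the authors used is not given in the sources used. The 5 genes and the gene lists were chosen with earlier results of these data known.

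RNA cells with at least 1000 genes were kept. Scrublet called 2 WT and 8 KO cells doublets, and they were kept. WT and KO RNA libraries shared 1 barcode, and the E13.5 libraries 2. Clustering used scanpy 1.11.5 with leidenalg 0.10.2 (2000 variable genes, 30 components, 15 neighbours, resolution 0.5 for RNA and 0.3 for ATAC) and left out the 5 genes, Ptf1a and the acinar genes. Clusters were named from marker lists, so class sizes rest on names rebuilt here. The name that the lists gave to ATAC cluster 1 of E13.5 was set aside. UMIs were summed per library and class and divided by all UMIs of the class. Intervals are exact Poisson, exact binomial (Clopper-Pearson) or exact conditional ones at 95%, with scipy 1.17.1, and cover counting error only. A gene was counted as different past a log2 ratio of 1 for RNA (at least 50 UMIs, pseudocount 10 CPM) or 0.5 for ATAC (10% or more of a library's cells above 0). With 1 library per group no tests were made and no p-values are given. Beside the 5 genes and Ptf1a, the text names of each list the highest, the lowest and the most abundant genes, and for each member the 3 genes most like it. The calculations were tested on simulated data. Alternatives were other clusterings, cell filters, pseudocounts, scalings, count minimums and thinning of cells to 2000 or 5000 UMIs, and 2 were added after the data were seen: cluster 2 alone, and leaving out the cell with most UMIs of a gene.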

Additional observations from a re-analysis of the deposited data

Results flagged for a closer look

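The ATAC score of Nkx6-1 at E13.5 went opposite ways between clusters. The KO over WT log2 ratio was -0.62 (cluster 0, progenitor-like), -1.23 (cluster 1) and -0.77 (cluster 2, endocrine-like), but 0.98 in the blood-like cluster 3. In cluster 3 the mean score was near 0 in both libraries, 0.0777 in WT and 0.153 in KO, with a score above 0 in 7.14% and 11.4% of cells. The difference between clusters was not tested, as each genotype had 1 library.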

How the results depend on the processing

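Leaving out a replicate was not possible with 1 library per group. No paired analysis was possible because each group had 1 library and no test was run. For the RNA ratios, 94 of 113 alternatives over 9 results stayed within the counting interval and 19 moved. A reversal was counted only for values past the threshold, and there was none. Of values inside the threshold 6 had the other sign, all of them endocrine-like Nkx6-1 or Nkx2-2, whose ratios were near 0. In progenitor-like cells, Pdx1 was -0.86 at resolution 0.3, -0.88 with cells of at least 500 genes, -0.89 with doublets left out, -0.62 thinned to 2000 UMIs and -0.94 over all kept cells. In the same order Nkx6-2 was 0.48, 0.46, 0.44, 0.84 and 0.31, below the threshold in each. The first 3 settings add 15 WT and 35 KO hepatobiliary-like cells to the class. Mnx1 was -3.07 and -1.15 with pseudocounts of 1 and 30 CPM and -1.22 thinned. Nkx6-1 was -0.78 thinned and -0.99 with 30 CPM, both below the threshold. Nkx2-2 was -2.91 thinned, and over all kept cells Nkx2-2 was -0.47 and Nkx6-1 -0.68, also set against the endocrine-like values. Endocrine-like Pdx1 was past the threshold thinned (-1.36) and with 1 CPM (-1.001), and endocrine-like Nkx6-2 thinned (1.03). The cause of these moves was not tested. Thinning to 5000 UMIs moved 12 of 14 shares, to 66% and 61.8% (WT and KO) for Pdx1, 25% for Mnx1 in WT, 36% and 11.8% for Nkx6-1, 62% for Nkx6-2 in WT, 33% and 5.88% for Nkx2-2, and, for 3 or more genes, 42% and 11.8% in progenitor-like and 9.80% and 3.39% in endocrine-like cells. With a minimum of 10 UMIs, 213 genes were higher in KO progenitor-like cells (112 at 50 UMIs), and 27 were lower and 46 higher in endocrine-like cells (8 and 22). For ATAC at E10.5, 17 of 20 alternatives stayed within 0.25 and 3 moved: Nkx6-1 (0.46) and Nkx2-2 (0.37) in cluster 1 and Nkx6-2 (-0.31) in cluster 2. The sign differed in 4 of the 20, all from values under 0.5. At E13.5, 21 of 28 moved and 2 past the threshold reversed, and 7 in all had the other sign, 5 of them Nkx6-2. In clusters 0, 1, 2 and 3, without the blood-like cluster and for the share of cells above 0, Pdx1 was -0.046, -0.56, -0.33, -0.32, -0.18 and -0.36, Nkx6-2 was 0.048, 0.20, 0.63, 0.24, 0.16 and -0.11, and Nkx2-2 was -0.89, -2.87, -0.76, 0.31 (reversed), -1.07 and -0.57. Nkx6-1 was -0.62, -0.77 and 0.98 (reversed) in clusters 0, 2 and 3, -0.71 without the blood-like cluster and -0.48 for the share. Low counts limit Mnx1, Nkx6-1 and Nkx2-2 in KO progenitor-like cells (3, 16 and 15 UMIs), and the depth behind the ATAC score is unknown.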
